A study of Mus musculus with 18 samples.

Results

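The results concern 42 genes of DNA replication and cell division in the mouse ovary, 20 that act in S phase and 22 that act in mitosis. Members were taken from a list of symbols and kept where at least 10 expected counts were found in 6 or more of the 18 libraries. All 42 passed, as did 17131 of the 55416 genes in the deposited tables. This list and the wider lists below were chosen with earlier results of these data known. Their shares beside those of all genes are therefore descriptions only. All 42 were also among the 16959 genes tested. The S phase and mitosis genes were kept apart throughout. The lowest member, Orc1, had 6 to 37 expected counts per library.

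Ovaries came from wild-type female Balb/c mice, 6 per group and 1 library per mouse, sequenced from the 3' ends of polyadenylated transcripts. Young controls (YC, 8 weeks of age) and aged controls (OC, 40 weeks) both received distilled water, and the treated aged mice (OC+SM, also 40 weeks) received Samul-tang, a traditional Korean herbal decoction, by mouth at 2.5 g/kg, 5 times a week for 4 weeks. All 3 groups were then primed with PMSG (pregnant mare serum gonadotropin, 5 IU), which drives follicle growth. The ovulatory hormone hCG (5 IU) followed 48 hours after that, and ovaries were removed 16 hours after hCG. The protocol calls this state post-ovulatory, and OC and OC+SM mice were kept apart inside a shared cage. Whole ovaries were used, so each value averages follicle, luteal, vascular and stromal cells.

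A cell that prepares to divide first loads the MCM helicase onto replication origins, which needs the origin recognition complex with Cdc6 and Cdt1. E2F transcription factors switch on these genes together with cyclin E and the enzymes that make nucleotides, and a later wave, driven by the MuvB complex with B-Myb and FoxM1, raises the kinases, cyclins and spindle proteins of mitosis. In the ovary, granulosa cells of growing follicles are the main dividing population, and they leave the cell cycle as they become luteal cells after the ovulatory surge.

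The promoter letters that these 2 waves are known for were looked up in RefSeq start-site windows (GRCm38.p6, 250 bases before to 50 after each start), which held 34 of the 42 members in 35 windows among 32851 in all; no window was matched for Foxm1, Kif20a, Aurkb, Mcm4, Tpx2, Ccne2, Gins2 and Ccna2. The E2F core was searched on both strands as the string TTCGCGC and as the variants spelled TTGGCGC, also as those spelled TTCCCGC and finally those spelled TTGCCGC. It was present in 66.7% of the 18 S phase windows, 17.6% of the 17 mitosis windows and 9.57% of all windows. The cell cycle homology region, or CHR (TTTGAA or TTCGAA, either strand), read by MuvB, was present in 16.7%, 70.6% and 19.2% of them, and the CCAAT box (either strand) in 66.7%, 82.4% and 37.4%. With the 250 upstream bases alone the CHR share was 41.2% for mitosis and 16.7% for S phase windows, against 17.1% of all, because many mitosis matches lay just after the start. Overlapping matches were counted separately, and an E2F core can share bases with a CCAAT box. Of the S phase genes called lower with age below, 6 of the 8 with a window held an E2F core, as did 5 of the 9 not called. The called genes without one were E2f1 and Mcm2. Windows follow the listed start sites, which were not checked against the reads, so a window can miss a gene's promoter. A match is a description of letters and not of a bound site. The 200 bases before the start are shown for 6 members, chosen because they carry the results or show each kind of promoter, 5′ to 3′ on the gene's strand, with E2F cores and CHR matches in capitals. Mcm5 (chr8:75109309-75109508, plus strand) and Mcm6 (chr1:128359706-128359905, minus strand), subunits of the MCM helicase, hold 3 and 4 E2F cores, some of which overlap. Orc1 (chr4:108579254-108579453, plus strand), the largest origin recognition subunit, holds 1 near its start. The stretch of Pcna (chr2:132253181-132253380, minus strand), the sliding clamp, holds none of either motif. Cdk1 (chr10:69352913-69353112, minus strand), the mitotic kinase, holds 2 of each, and Top2a (chr11:99024190-99024389, minus strand), the topoisomerase that untangles sister chromatids, holds 4 CHR matches.
Mcm5: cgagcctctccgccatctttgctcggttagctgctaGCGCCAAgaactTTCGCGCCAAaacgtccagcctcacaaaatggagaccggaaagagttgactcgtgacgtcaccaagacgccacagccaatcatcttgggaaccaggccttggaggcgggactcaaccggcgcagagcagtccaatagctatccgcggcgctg
Mcm6: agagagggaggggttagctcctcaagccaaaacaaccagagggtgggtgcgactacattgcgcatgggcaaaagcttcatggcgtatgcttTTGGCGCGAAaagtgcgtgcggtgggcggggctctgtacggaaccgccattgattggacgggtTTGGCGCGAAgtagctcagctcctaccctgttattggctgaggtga
Orc1: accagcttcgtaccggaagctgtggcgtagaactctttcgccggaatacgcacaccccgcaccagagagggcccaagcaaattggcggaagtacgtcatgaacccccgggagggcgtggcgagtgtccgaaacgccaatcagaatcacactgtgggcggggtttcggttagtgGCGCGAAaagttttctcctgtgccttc
Pcna: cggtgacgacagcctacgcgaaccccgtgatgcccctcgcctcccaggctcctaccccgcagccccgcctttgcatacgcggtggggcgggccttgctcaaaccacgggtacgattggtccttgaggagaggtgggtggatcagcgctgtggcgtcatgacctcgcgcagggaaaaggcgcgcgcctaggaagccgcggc
Cdk1: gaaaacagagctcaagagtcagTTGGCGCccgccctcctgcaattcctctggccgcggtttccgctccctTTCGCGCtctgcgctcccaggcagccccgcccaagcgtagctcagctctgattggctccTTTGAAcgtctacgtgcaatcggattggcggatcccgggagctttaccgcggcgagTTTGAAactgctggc
Top2a: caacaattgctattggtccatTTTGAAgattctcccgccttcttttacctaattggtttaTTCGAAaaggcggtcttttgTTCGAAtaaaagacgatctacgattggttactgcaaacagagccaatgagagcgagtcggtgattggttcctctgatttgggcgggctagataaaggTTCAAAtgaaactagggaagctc

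Depth, given in units of 1000000 expected counts, spanned 9.05 to 14.15 for YC, 11.61 to 13.43 for OC and 14.20 to 20.35 for OC+SM. OC+SM libraries were all deeper than those of both control groups (exact permutation p = 0.00216, the smallest 6 against 6 can give, adjusted p = 0.00325 over 3 tests), and the 3 sets of comparisons share libraries. The most abundant gene, ENSMUSG00000119584, took 13.81 to 18.49% of counts in OC and 6.20 to 14.35% in OC+SM. Library OC+SM 6 stood apart in the mitosis genes, as described below, and results that rest on it are given with and without it. No pair among 153 agreed within sampling noise (lowest chi-square per degree of freedom 4.04). The labels name separate mice, so p-values measure the spread between mice. Which mice shared a cage is not in the labels, and the fit holds no term for cage.

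With age, 9 of the 20 S phase members fell and none of the 22 mitosis members passed the test. In OC against YC, 9 of 20 S phase members were called lower by edgeR at an adjusted p under 0.05 and none higher, against 6.03% of all genes tested lower and 5.25% higher (11.3% called in all). All 20 S phase fold changes were negative, from -0.89 to -0.03 with a median of -0.45 (log2), while the median over all genes tested was 0.01. None of the 22 mitosis members was called (1 at an unadjusted p under 0.05, none by DESeq2 or limma-voom). Over all genes tested 4078 of 16959 stood at an unadjusted p under 0.05. The mitosis fold changes ran from -0.40 to 0.10, with a median of -0.14, and 19 of 22 were negative. All 3 methods used the 18 libraries here. Without OC+SM 6, or in a fit of the 12 OC and YC libraries, edgeR called 3 mitosis members lower, as given below. Whether the 2 classes differ was not tested, and the members were chosen with earlier results of these data known. In whole ovaries fewer cells of a type and less RNA per cell cannot be told apart.

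**Figure D1:**
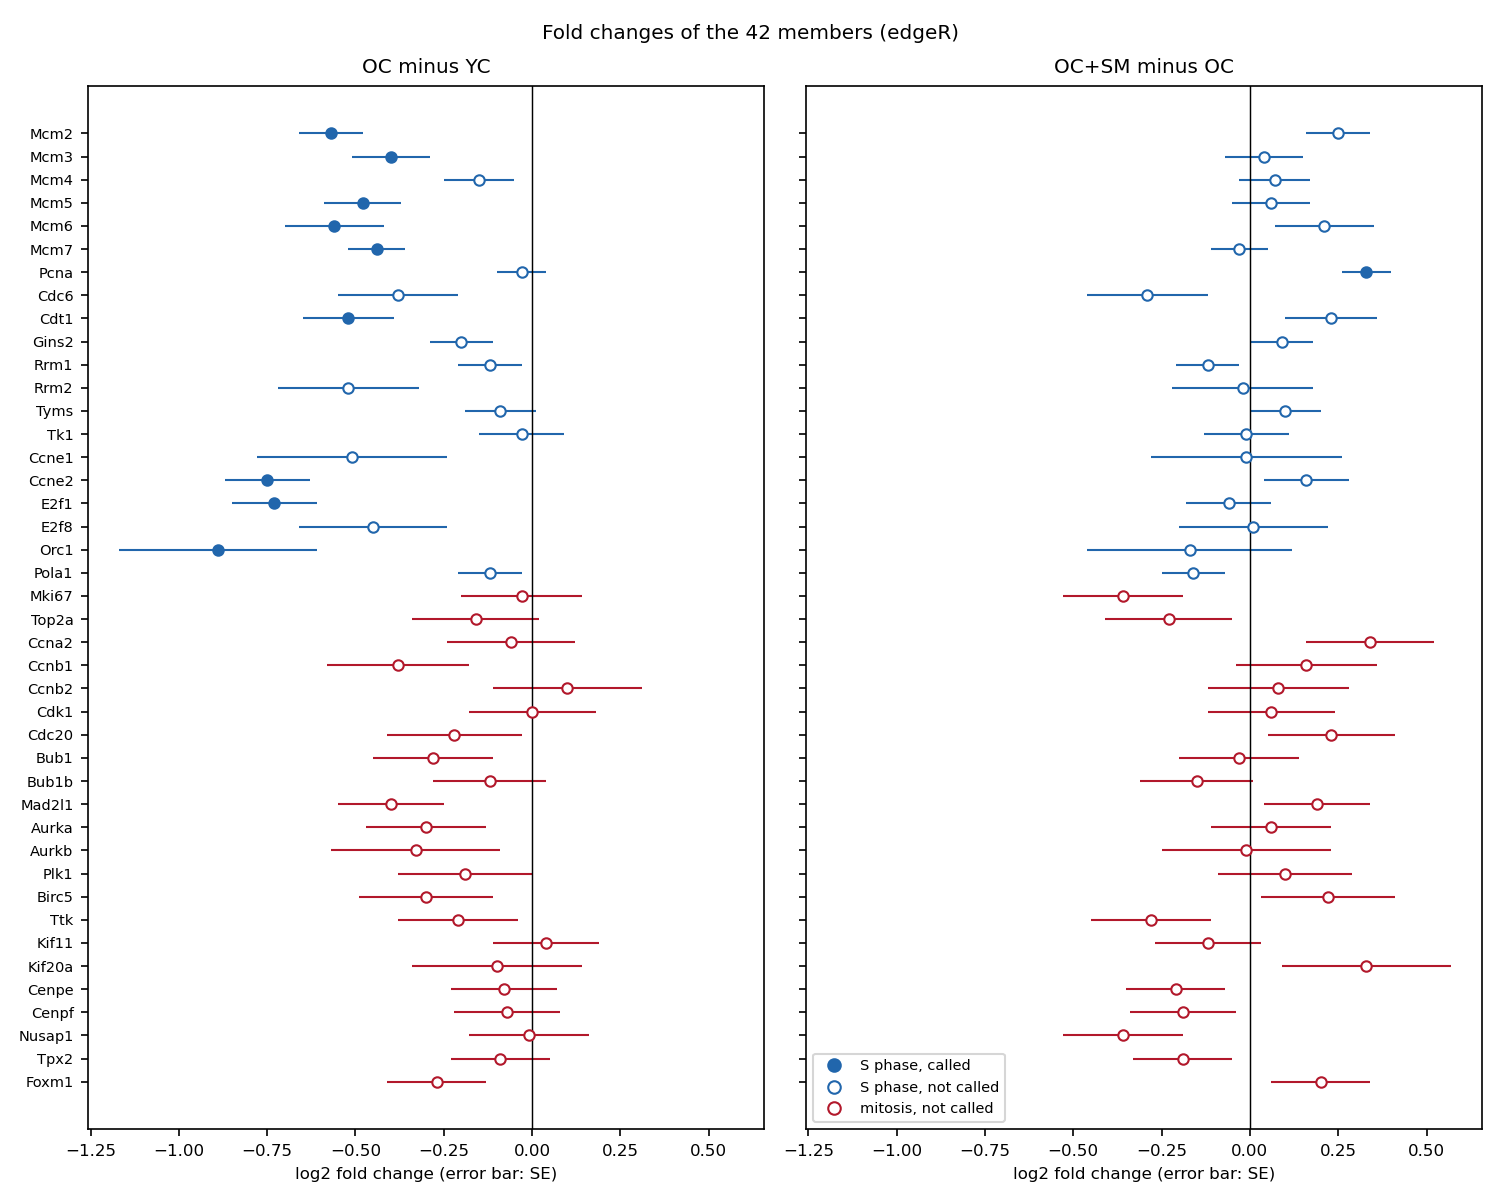
Log2 fold changes (horizontal axis) of the 42 members with age (left, OC minus YC) and with Samul-tang (right, OC+SM minus OC). Points are edgeR estimates, bars are 1 SE, blue is S phase, red is mitosis, and filled points were called at an adjusted p under 0.05. On the left 9 blue points are filled, and on the right only Pcna is.

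The MCM helicase, a ring of 6 subunits that opens the DNA ahead of the replication fork, gave 5 of the 9 called genes. Mcm2 ran from 21.5 to 28.6 CPM (counts in 1000000, scaled by TMM) in YC with a median of 23.9, from 15.3 to 19.1 in OC with a median of 16.3, and from 18.1 to 24.1 in OC+SM with a median of 18.4. Every OC library lay below every YC library, and Mcm2 fell by 0.57 ± 0.09 on the log2 scale (SE, n = 6 per group; edgeR adjusted p = 0.000174). Mcm5 ran from 15.4 to 19.2 CPM in YC (median 18.3), 10.6 to 15.4 in OC (12.8) and 11.3 to 16.4 in OC+SM (12.9). Here the highest OC value lay just under the lowest YC value, and the fold change was -0.48 ± 0.11 (adjusted p = 0.00335). Mcm7 ran from 69.9 to 91.3 CPM in YC (median 85.5), 55.2 to 64.3 in OC (62) and 46.4 to 67.5 in OC+SM (61.3), and OC and YC again did not overlap (-0.44 ± 0.08, adjusted p = 0.000799). RSEM gave Mcm7 part counts in all 18 libraries, so some of its reads are shared with another gene.

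Mcm3 and Mcm6 fell too, with groups that overlapped. Mcm6 ran from 17.2 to 22.7 CPM in YC (median 21.2), 11.5 to 19.3 in OC (13.7) and 12.4 to 20.9 in OC+SM (15.4), a fold change of -0.56 ± 0.14 (adjusted p = 0.00815). Mcm3 ran from 25.1 to 38.5 CPM in YC (median 31.9), 17.6 to 30.7 in OC (24.3) and 22.7 to 28.3 in OC+SM (25), a fold change of -0.40 ± 0.11 (adjusted p = 0.0224). The call of Mcm3 was lost without OC 2, OC 4, YC 2 or YC 6 and on the log2 TPM scales (adjusted p up to 0.174), whereas Mcm2, Mcm5, Mcm6 and Mcm7 kept theirs in all 26 alternatives. The remaining subunit, Mcm4, had 21.2 to 30 CPM in YC, 20 to 28.4 in OC and 20.5 to 28 in OC+SM, and did not pass (-0.15 ± 0.10, adjusted p = 0.419).

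Of the 3 origin licensing factors, Cdt1 and Orc1 fell with age and Cdc6 did not pass. Cdt1, which brings the helicase to origins, ran from 11 to 13.9 CPM in YC (median 11.9), 6.94 to 11.2 in OC (7.92) and 7.33 to 11.1 in OC+SM (10). It fell by 0.52 ± 0.13 with age (log2, edgeR adjusted p = 0.00945), with 1 OC library inside the YC range. Orc1 ran from 2.03 to 2.74 CPM in YC (median 2.29), 0.79 to 1.93 in OC (1.12) and 0.431 to 1.52 in OC+SM (1.12). Its groups did not overlap (-0.89 ± 0.28, adjusted p = 0.0412), but at such low counts the call held in only 11 of 26 alternatives (adjusted p up to 0.29) and was lost without any one of OC 2, 3, 4 and 5 and YC 1, 2, 3, 4 and 6. Cdc6, the loader that joins the origin complex, had 5.82 to 9.26 CPM in YC (median 7.79), 4.62 to 8.83 in OC (5.28) and 3.76 to 6.04 in OC+SM (4.44). With age it did not pass (-0.38 ± 0.17, adjusted p = 0.164). Without OC 6, the library with 8.83 CPM, it did (adjusted p = 0.0304).

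The regulators of S phase entry gave the smallest p-values. E2f1, the activating transcription factor, ran from 11.2 to 14.5 CPM in YC (median 14), 6.76 to 9.89 in OC (7.84) and 6.93 to 8.67 in OC+SM (7.55). Ccne2, a cyclin that activates Cdk2 at the start of S phase, ran from 14.1 to 17.7 CPM in YC (median 16.4), 7.5 to 12.1 in OC (10) and 8.29 to 12.4 in OC+SM (10.9). For both genes all OC and all OC+SM libraries lay below all YC libraries. E2f1 fell by 0.73 ± 0.12 (log2, edgeR adjusted p = 0.000142) and Ccne2 by 0.75 ± 0.12 (adjusted p = 0.000172) with age, and both calls stood in all 26 alternatives, as did that of Cdt1. Ccne2 also carried part counts in all 18 libraries. The related Ccne1 (-0.51 ± 0.27, adjusted p = 0.262) and the repressor E2f8 (-0.45 ± 0.21, adjusted p = 0.173) had wide errors and did not pass.

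Genes of the fork and of nucleotide supply were mostly nearer to the young level. Pcna stood at -0.03 ± 0.07, the thymidine kinase gene Tk1 at -0.03 ± 0.12, thymidylate synthase (Tyms) at -0.09 ± 0.10, the large ribonucleotide reductase subunit Rrm1 at -0.12 ± 0.09, DNA polymerase alpha (Pola1) at -0.12 ± 0.09 and the helicase cofactor Gins2 at -0.20 ± 0.09 on the log2 scale, none called (edgeR adjusted p from 0.198 for Gins2 upwards). Rrm2, the small subunit whose level limits the reductase in S phase, was the exception in size. It ran from 6.07 to 8.28 CPM in YC (median 6.79), 3.85 to 5.77 in OC (5) and 2.21 to 6.73 in OC+SM (5.45). OC and YC did not overlap, yet Rrm2 missed the threshold (-0.52 ± 0.20, adjusted p = 0.105). In all, 7 of 20 S phase members and 1 of 22 mitosis members had OC libraries wholly below YC, against 4.17% of all genes tested. No member had OC wholly above YC, which 3.21% of all genes tested did.

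**Figure D2:**
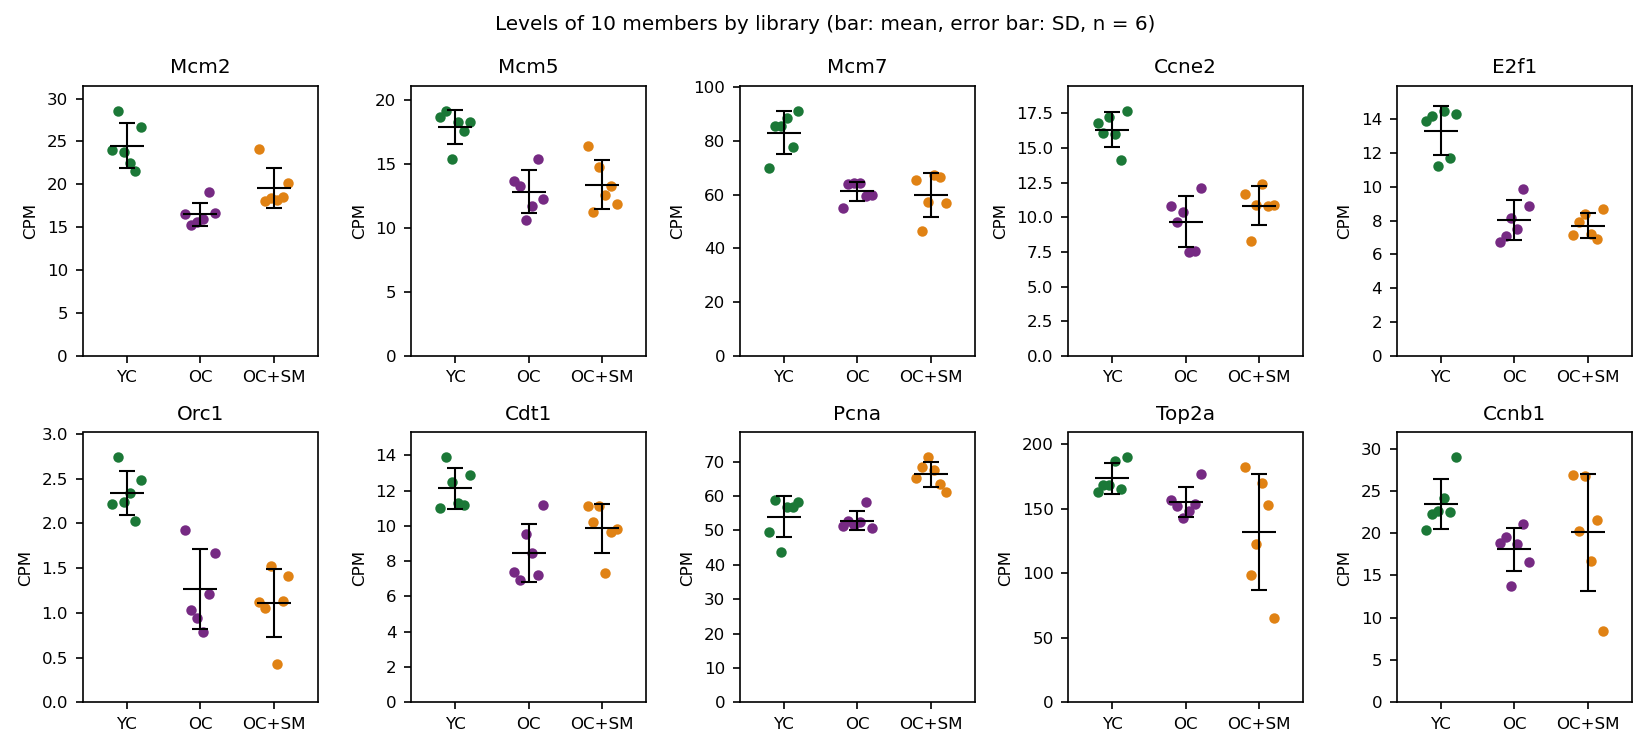
CPM (vertical axis, from 0) of 10 members in each library, by group; bars are the mean and error bars the SD, n = 6. Mcm2, Mcm5, Mcm7, Ccne2, E2f1 and Orc1 have every OC point below every YC point, Pcna has every OC+SM point above every OC point, and Top2a and Ccnb1 each have 1 low OC+SM point, that of library 6.

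Among mitosis genes the closest to a call with age was Mad2l1, a spindle checkpoint protein, with 12.1 to 17.5 CPM in YC (median 14.6), 9.29 to 13.4 in OC (10.8) and 7.07 to 16.9 in OC+SM (12.6). Its groups overlapped and it missed the threshold (-0.40 ± 0.15, adjusted p = 0.0892). The proliferation marker Mki67 ran from 57.7 to 63.1 CPM in YC (median 61.2) and 52.1 to 68.5 in OC (58.4), a log2 difference of -0.03 ± 0.17. Top2a ran from 163 to 190 CPM in YC (median 168) and 143 to 177 in OC (153), a difference of -0.16 ± 0.18. In the fit of 18 libraries the standard errors of the mitosis members ran from 0.14 to 0.24, with a median of 0.17. They were mostly wider than those of the S phase members (0.07 to 0.28, median 0.11). Without OC+SM 6, which enters the age fit only through the shared spread, the mitosis errors narrowed. They were then 0.10 for Mki67, 0.11 for Top2a, 0.09 for Nusap1 and 0.09 for Cenpe. The spindle genes Nusap1 (YC 47.9 to 58.8 CPM, OC 47.8 to 60.2) and Cenpe (48.6 to 58 and 38.6 to 58.7) and the checkpoint kinase Ttk (16.4 to 22.7 and 13.2 to 21.9) overlapped between the groups and had log2 differences of -0.01 ± 0.17, -0.08 ± 0.15 and -0.21 ± 0.17.

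The mitosis count depended on 1 treated library that enters only through the shared spread. Without OC+SM 6, or in a fit of the 12 OC and YC libraries, 3 mitosis members were called lower with age, Ccnb1, Mad2l1 and Birc5, and Rrm2 joined the S phase calls, which then numbered 10 of 20. These genes are named after their values were seen. Calls over all genes rose in these fits too. From 1912 (1022 lower) they went to 2203 without OC+SM 6 (1156 lower) and 2307 with 12 libraries (1204 lower). Birc5, a subunit of the chromosomal passenger complex, had 42.7 to 48.4 CPM in YC (median 44.6) and 32.9 to 42.5 in OC (36.4), with no overlap. Ccnb1, the main mitotic cyclin, had 20.4 to 29 CPM in YC (median 22.5) and 13.8 to 21.1 in OC (18.8), which overlapped. In the fit of 18 libraries they stood at -0.30 ± 0.19 (edgeR adjusted p = 0.358) and -0.38 ± 0.20 (adjusted p = 0.26).

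Cell type markers moved with age beside the S phase genes. All 15 oocyte markers tested of a list of 16 were called lower, and their summed level ran from 147.0 to 219.7 CPM in YC and from 44.5 to 77.3 in OC. Of 12 granulosa markers 5 were lower and 1 higher, with sums of 1218 to 1769 CPM in YC and 835.8 to 1313 in OC. Luteal markers summed to 10686 to 14130 CPM in YC and 15682 to 18369 in OC, with 2 of 9 called higher. Endothelial markers summed to 353.5 to 401.1 and 419.6 to 477.3 CPM, with 3 of 8 higher. Theca markers had 4 of 6 lower and 1 higher. None of these markers was at 0 in all libraries. Their part in the fall of the S phase genes was not tested.

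Samul-tang was compared with water in aged ovaries, and 1 of the 42 genes was called. Pcna, which tethers DNA polymerases to the template, was higher in OC+SM than in OC, 1 of 20 S phase members, against 0.548% of all genes tested called higher and 1.04% called in either direction. The median log2 fold change was 0.03 for S phase members (-0.29 to 0.33, 11 positive and 9 negative) and 0.03 for mitosis members (-0.36 to 0.34, 11 positive and 11 negative), against 0.01 over all genes tested. The mitosis median turned on single libraries: it was 0.17 without OC+SM 6 (-0.23 to 0.47, 13 positive and 9 negative) and -0.08 without OC+SM 1. The S phase median was 0.09 without OC+SM 6 and 0.00 without OC+SM 1. No mitosis member was called (2 at an unadjusted p under 0.05, none by DESeq2 or limma-voom). Over all genes tested 2861 of 16959 stood at an unadjusted p under 0.05.

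Pcna ran from 43.8 to 58.7 CPM in YC (median 56.8), 50.8 to 58.1 in OC (51.9) and 61.2 to 71.3 in OC+SM (66.4). All 6 treated libraries lay above all 12 control libraries, while 0.849% of all genes tested had OC+SM wholly above OC. No member had OC+SM wholly below OC, which 0.678% did. The log2 fold change was 0.33 ± 0.07 against OC (SE, n = 6 per group; edgeR adjusted p = 0.0242) and 0.29 ± 0.07 against YC (adjusted p = 0.00382). The call against OC was kept in 19 of 25 alternatives and with every library thinned to the smallest total. It was lost without any one of OC 3, OC 4, OC 6, OC+SM 1 and OC+SM 3, and when the fit included the share of ENSMUSG00000119584 (adjusted p up to 0.509, with log2 values from 0.25 to 0.37 throughout). Pcna had part counts in 17 of 18 libraries, and its 2 named processed copies reached at most 11 counts in any library.

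None of the 9 S phase genes that fell with age was called in OC+SM against OC, where 1.04% of all genes tested were called. The OC group enters both comparisons, so the fold changes are given side by side only. For Mcm2 they were -0.57 ± 0.09 with age and 0.25 ± 0.09 with Samul-tang (edgeR adjusted p = 0.163), for Mcm6 -0.56 ± 0.14 and 0.21 ± 0.14 (adjusted p = 0.469), and for Cdt1 -0.52 ± 0.13 and 0.23 ± 0.13 (adjusted p = 0.386). For E2f1 they were -0.73 ± 0.12 and -0.06 ± 0.12 (adjusted p = 0.84), and for Mcm7 -0.44 ± 0.08 and -0.03 ± 0.08 (adjusted p = 0.902). With Samul-tang Mcm3 stood at 0.04 ± 0.11, Mcm5 at 0.06 ± 0.11, Ccne2 at 0.16 ± 0.12 and Orc1 at -0.17 ± 0.29. Their age values are given above.

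In mitosis genes, differences with Samul-tang went both ways, within wide errors in the fit of 18 libraries. Mki67 ran from 23.5 to 60.3 CPM in OC+SM (median 49.5) against 52.1 to 68.5 in OC (-0.36 ± 0.17, edgeR adjusted p = 0.274). Nusap1, which bundles spindle microtubules, ran from 19.6 to 57.8 CPM (median 40.8) against 47.8 to 60.2 (median 54.2), at -0.36 ± 0.17 (adjusted p = 0.29). Top2a ran from 65.2 to 182 CPM (median 138) and stood at -0.23 ± 0.18, and Cenpe, a kinetochore motor, ran from 23.7 to 58.2 CPM (median 44.9) and stood at -0.21 ± 0.14. OC+SM 6 had the lowest value of each of these 4 genes, and without it the log2 differences were -0.23 ± 0.10 for Mki67 (adjusted p = 0.269), -0.21 ± 0.09 for Nusap1 (adjusted p = 0.244), -0.10 ± 0.11 for Top2a and -0.08 ± 0.09 for Cenpe. In the other direction the cyclin gene Ccna2 had 13.1 to 33 CPM in OC+SM (median 26.8) and 15.4 to 24.8 in OC (20.5), at 0.34 ± 0.18 (adjusted p = 0.345). RSEM gave it part counts in all 18 libraries. Without OC+SM 6 it stood at 0.47 ± 0.12 (adjusted p = 0.0563). It was called higher only in a fit without both YC 3 and OC+SM 6, the libraries least like their groups (adjusted p = 0.042), and it is named after its values were seen. Without OC+SM 6 alone, Birc5 stood at 0.37 ± 0.10 (edgeR adjusted p = 0.0708) and Cdc20 at 0.38 ± 0.12 (adjusted p = 0.111). Mad2l1 and Ccnb1 both stood at 0.31 ± 0.12 (adjusted p = 0.181 and 0.187). In that fit 13 mitosis members were positive and 9 negative.

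The comparison of treated aged with young ovaries shares its libraries with the other 2 and gave 9 S phase members lower and 1 higher of 20, with 10.9% of all genes tested lower and 11.5% higher (22.4% in all). The lower ones were Mcm2 (log2 -0.32), Mcm3 (-0.36), Mcm5 (-0.42), Mcm7 (-0.47), Ccne2 (-0.59), E2f1 (-0.79), Orc1 (-1.06), Cdc6 (-0.68) and Pola1 (-0.28). Pcna was the higher one. Cdc6 and Pola1 were not called with age, while Mcm6 and Cdt1, called with age, were not called here (-0.35 ± 0.13, edgeR adjusted p = 0.0608, and -0.29 ± 0.13, adjusted p = 0.101). Pola1 had 28.9 to 34.8 CPM in YC (median 33.1), 27.2 to 32.6 in OC (30.1) and 20.5 to 30.6 in OC+SM (28.7). It overlapped between YC and OC+SM (adjusted p = 0.0284). Leaving out YC 3, YC 4, YC 6, OC+SM 2 or OC+SM 3 ended that call. Mcm3 lost its call against YC without YC 2, YC 6 or OC+SM 2. Of the 20 members 4 had OC+SM wholly below YC (Mcm7, Ccne2, E2f1 and Orc1) and 1 wholly above (Pcna), against 4.65% and 4.85% of all genes tested.

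One mitosis member was called against YC, Ttk, with 16.4 to 22.7 CPM in YC (median 18.3), 13.2 to 21.9 in OC (15.3) and 7.81 to 18.9 in OC+SM (13.6). The groups overlapped, and Ttk fell by 0.49 ± 0.16 (log2, edgeR adjusted p = 0.0345). It was 1 of 22 mitosis members, beside 10.9% of all genes tested lower and 11.5% higher. The call was lost without any one of YC 4, YC 6, OC+SM 2 and OC+SM 3. Without OC+SM 1, 4 mitosis members were called lower than in YC, Ttk, Mki67, Top2a and Cenpe. Without OC+SM 4, Nusap1 joined Ttk, and without OC+SM 6, Ccna2 was called higher beside it. Over all genes 3361, 3775 and 3920 were called without OC+SM 1, 4 and 6 in turn, against 3795 in the fit of 18 libraries. Counting all 3 comparisons, 29 of the 42 members were called in none, a count that was not made over all genes. Orc1 in OC+SM against YC was the only member difference of at least 2-fold.

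Library OC+SM 6 had low mitosis genes, while its S phase sum was near those of other aged libraries. The 22 mitosis members summed to 329.9 CPM in it, against 624.5 to 879.5 in the other 5 treated libraries, 636.6 to 737.3 in OC and 717.6 to 841.6 in YC. Each of the 22 lay below all 5 other treated libraries, at 25.6% (Aurkb, a kinase of the passenger complex) to 66.4% (Foxm1) of their median, and 21 of 22 were the lowest of all 18 libraries. The exception, Kif20a, a kinesin of cytokinesis with part counts in all 18 libraries, was lowest in OC 6. Its S phase sum of 353.3 CPM was also the lowest of all 18 libraries, by a small margin (354.4 to 429.5 in the other treated libraries, 355.2 to 399.4 in OC), and 7 of 20 S phase members lay below them, from 38.4% of their median for Rrm2 and 63.1% for Tk1 to 126% for Orc1.

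**Figure D3:**
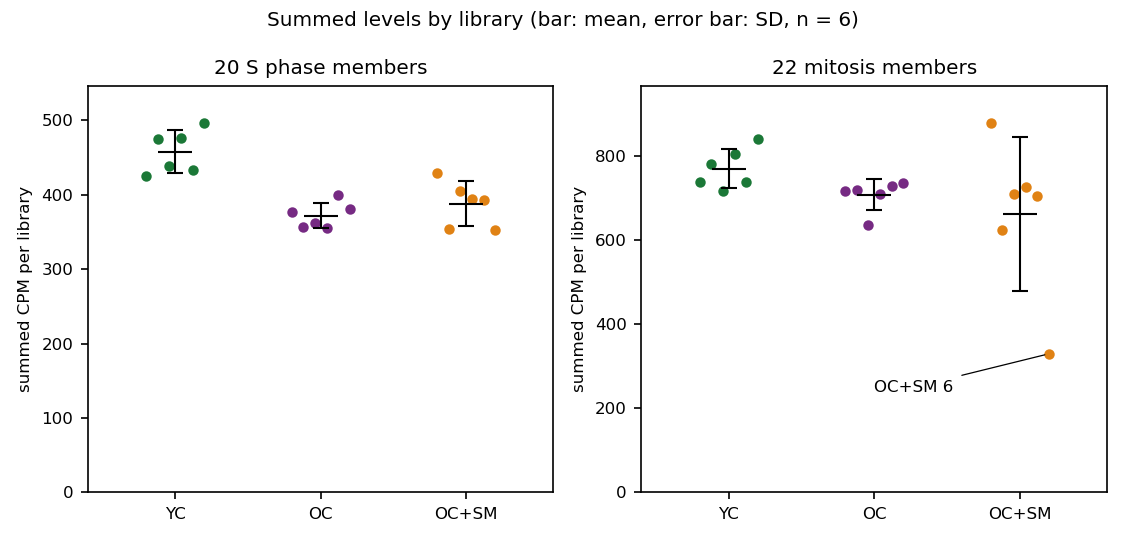
Summed CPM (vertical axis, from 0) of the S phase members (left) and mitosis members (right) in each library; bars are the mean and error bars the SD, n = 6. S phase sums are 425.7 to 496.7 in YC, above all OC and most OC+SM libraries, and OC+SM 6 lies apart at 329.9 in mitosis only.

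The ratio of the S phase sum to the mitosis sum was 1.07 in OC+SM 6, 0.49 to 0.57 in the other treated libraries, 0.50 to 0.57 in OC and 0.58 to 0.61 in YC. Sums are led by the abundant members. Endothelial markers summed to 261.4 CPM in OC+SM 6 against 405.9 to 468.1 in the others, and oviduct markers to 6.6 against 17.3 to 20.1. Only 2 of the 5 oviduct markers, Ovgp1 and Sox17, had enough counts to be tested, so that sum is a weak measure of oviduct cells. The part of either cell type in the low mitosis level was not tested. The upstream control genes described below summed to 1055 CPM in OC+SM 6, again the lowest of all 18, against 1184 to 1396 in the other treated libraries. At the other end, OC+SM 1 was the highest treated library for 17 of 22 mitosis members.

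**Figure D4:**
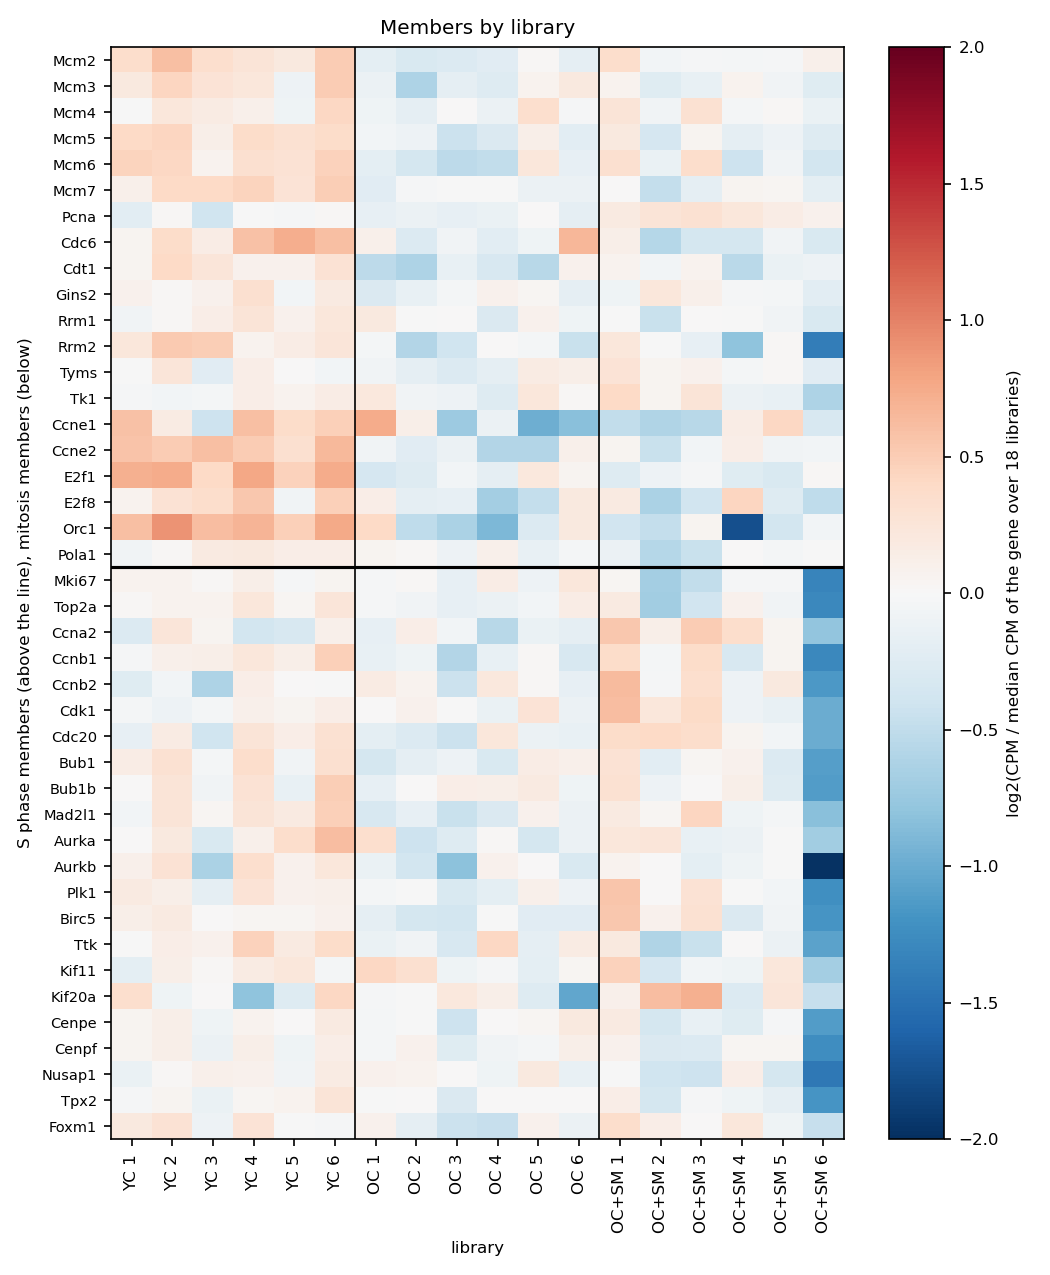
Log2 of CPM over the gene's median of 18 libraries (colour, from -2 to 2) for the 20 S phase members (above the line) and 22 mitosis members (below) in each library (columns, by group). The upper left block of YC is mostly above the median, and the lower part of the last column, OC+SM 6, is the lowest stretch.

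Wider lists held other genes of the 2 programmes. Of 51 further replication genes 10 were called lower with age (6.03% of all genes tested were) and none higher (median log2 fold change -0.24, 45 of 51 negative). They included Uhrf1, which guides maintenance methylation to new DNA and fell by 0.75 ± 0.14 (edgeR adjusted p = 0.000729), and the MYC and E2F target Cdca7 (-0.63 ± 0.11). Dtl, the adaptor that marks Cdt1 for destruction, changed by -0.52 ± 0.10, the ligase Lig1, which seals Okazaki fragments, by -0.38 ± 0.09, and Mcm10, which activates the helicase, by -0.61 ± 0.17. Uhrf1, Cdca7, Dtl and Lig1 kept their calls in all 26 alternatives, and Mcm10 lost its without OC 3 or OC 4. Clspn, a checkpoint adaptor at the fork, was called only against YC (OC+SM minus YC -0.73 ± 0.15), where 15 of the 51 were lower and 1 higher, beside 10.9% and 11.5% of all genes tested.

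Of 62 further mitosis genes 9 were called lower with age (6.03% of all genes tested were) and none higher (median log2 fold change -0.18). Smc4, a core condensin subunit, ran from 206 to 242 CPM in YC and 158 to 192 in OC and fell by 0.35 ± 0.07 (log2, edgeR adjusted p = 0.00108). The phosphatase Cdc25a (-0.31 ± 0.09) and the kinesin Kif14 (-0.54 ± 0.17) were called too. This count fell to 5 without any one of OC 2, OC 3, OC 4 and YC 6. Cdc25a lost its call without OC 2, 3, 4 or 6 or YC 3 or 6, and Kif14 kept its in 12 of 26 alternatives, lost without OC 1 to 5 or YC 1, 2, 3, 5 or 6 in turn. Against YC, 12 of the 62 were lower in OC+SM, including the kinetochore gene Cenpk (-0.79 ± 0.14), and 3 higher, including the checkpoint gene Bub3 (0.29 ± 0.07) and the histone variant H2az1 (0.30 ± 0.07), beside 10.9% and 11.5% of all genes tested.

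Upstream control genes went both ways with age, 3 of 30 higher and 4 lower (5.25% and 6.03% of all genes tested). In a fit of the 12 OC and YC libraries 11 of the 30 were called, and without OC+SM 6 10 were. Over all genes 2307 and 2203 were called in those fits, against 1912 in the fit of 18 libraries. Cdkn2a has the Cdk4 and Cdk6 inhibitor p16 among its products, which counts per gene do not tell apart. It had 1.26 to 2.56 CPM in YC (median 1.54), 3.7 to 9.55 in OC (6.86) and 4 to 8.9 in OC+SM (5.7). All aged libraries lay above all young ones (log2 1.93 ± 0.26 for OC minus YC, edgeR adjusted p = 1.79e-05). Ccnd2, the cyclin D that follicle-stimulating hormone induces in granulosa cells, had 319 to 392 CPM in YC and 210 to 273 in OC and fell by 0.54 ± 0.09 (adjusted p = 0.000252). Mybl2, which encodes B-Myb, fell by 0.88 ± 0.16 (adjusted p = 0.000769) and Ccnd3 rose by 0.26 ± 0.07 (adjusted p = 0.0148). Cdkn2a, Ccnd2 and Mybl2 kept their calls in all 26 alternatives. The call of Cdk6 (-0.31 ± 0.10, adjusted p = 0.0498) stood in 8 of 26 alternatives and was lost without any one OC library and without YC 1, 2, 3, 4 or 6. The inhibitor Cdkn2c was called only in OC+SM against YC (0.52 ± 0.12).

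Of 20 genes of the ubiquitin ligases APC/C and SCF, which end mitosis and license S phase, none was called with age by edgeR in the fit of 3 group means (2 at an unadjusted p under 0.05, none by DESeq2 or limma-voom). With age 11.3% of all genes tested were called, and 4078 of 16959 stood at an unadjusted p under 0.05. Skp2 was called lower with age under an edgeR replicate block and on both log2 TPM scales. Skp2, which targets p27 for destruction, and Anapc7 were lower in OC+SM than in YC (-0.59 ± 0.12 and -0.28 ± 0.09). They were 2 of the 20 genes, beside 10.9% of all genes tested lower and 11.5% higher. That count of 2 became 4 without YC 1 or without OC+SM 5 and 1 without YC 3.

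With Samul-tang no gene of these 4 lists was called by edgeR, while 1.04% of all genes tested were. At unadjusted p under 0.05 stood 6 of 51 replication, 8 of 62 mitosis, 11 of 30 upstream control and 2 of 20 ligase genes. Over all genes tested 2861 of 16959 did. DESeq2 called 1, 3, 3 and 0 genes of these lists (665 genes in all), and limma-voom 1, 0, 2 and 0 (292 in all). Without OC+SM 4 edgeR called 1, 3, 3 and 0, without OC+SM 5 it called 3 mitosis genes and 1 control gene, and without OC+SM 6 it called 1, 2, 1 and 0. A single replication gene was called without OC 3 and a single mitosis gene without OC 4. Cenpk came closest among the genes named here (-0.55 ± 0.14, adjusted p = 0.0507).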

How the data were processed

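QuantSeq 3' libraries of 18 ovaries were used. The submitters' processing notes list RSEM 1.3.3, STAR 2.7.9a, FastQC 1.9 and GRCm39. No source used here gives the annotation or strand setting, so overlapping and antisense genes may share reads. For each library the authors deposited RSEM's expected counts, which split reads shared between genes, and TPM for 55416 genes, per the file headers. Of the expected counts 87.4% were whole to within 0.005. The authors' TPM values are divided by gene length, which does not suit 3' tags, and served only as an alternative. Symbols came from a GENCODE table matched by identifier (52083 of 55416); 1 gene of the lists was not matched.

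Expected counts were rounded, filtered with filterByExpr (16959 genes), scaled by TMM and analysed by quasi-likelihood in edgeR 4.0.16 (robust, two-sided, R 4.3.3), with 1 fit of 18 libraries with 3 group means. P-values were adjusted by the Benjamini-Hochberg method over all genes, and calls were made under 0.05. Depth was compared by two-sided exact permutation tests. Alternatives were DESeq2 1.42.0, limma 3.58.1 (voom, and log2(TPM + 1) or log2(TPM + 0.1)), other scaling and filters, a replicate block, thinning, a covariate and libraries left out; leaving OC+SM 6 out of the age fit was chosen after seeing the data. The scripts were tested on simulated data.

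Members and lists were chosen with earlier results of these data known. Named with full values were members called in any comparison, and mitosis members with the smallest p up to 6; wider lists gave up to 6 called genes each, by smallest p, and the text prints those values that add to the account. A TPM scale changed the balance of calls: with age 890 genes were higher and 1022 lower by edgeR, 559 and 1105 on log2(TPM + 1), and in OC+SM against YC 1954 and 1841 became 1365 and 2010.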

Additional observations from a re-analysis of the deposited data

Results flagged for a closer look

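In 9 of 132 groups of 6 libraries examined (each member and each summed class in each group), the highest or lowest library was set apart from the rest by a gap that, over the group's range, passed Dixon's 95% critical value. Chance gives such a gap in about 1 of 20 groups, which here is 6.6. Aurkb was low in YC 3 (3.41 CPM, next 5.61) and in OC+SM 6 (1.35 CPM, next 4.6). OC 5 was high in Mcm2 (19.1 CPM, next 16.6), Mcm4 (28.4, next 22.6) and Pcna (58.1, next 52.8), and OC 6 in Cdc6 (8.83, next 5.97). OC 3 was low in Tpx2 (22 CPM, next 26.7) and in the summed mitosis members (636.6 CPM, next 711.1). OC+SM 1 was high in Mcm2 (24.1 CPM, next 20.2). The summed mitosis members of OC+SM 6 (329.9 CPM, next 624.5) did not reach that gap; the highest treated library, OC+SM 1, had 879.5 CPM.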

How the results depend on the processing

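No called result reversed direction. The S phase count with age (9) ran from 7 to 10 over all 26 alternatives, the same span when 1 library was left out. The mitosis count with age (0) was 3 in a fit of 12 libraries and 2 without both YC 3 and OC+SM 6, and ran from 0 to 3 with 1 library left out, 3 without OC+SM 6. With Samul-tang 176 genes were called in all, against 665 by DESeq2, 292 by limma-voom, 45 with 12 libraries, 483 without both YC 3 and OC+SM 6, 0 with the share of the most abundant gene as covariate, and 32 (OC+SM 3) to 593 (OC+SM 4) with 1 library left out. The S phase count there (1) was 0 with that covariate and 0 to 1 with 1 library left out, and the mitosis count (0) was 1 without both libraries. Against YC the covariate gave 1368 of 3795 genes, 5 of 10 S phase and 0 of 1 mitosis calls; the mitosis count was 2 by DESeq2, 0 with no filter on low counts, 4 on either log2 TPM scale, 2 without both libraries and 0 to 4 with 1 left out. Causes were not tested.

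The labels' replicate numbers gave no sign of pairing: the 18 correlations of same-numbered libraries ran from -0.15 to 0.09, and 2 were the best of their library. With a replicate block 1756 genes were called with age, 139 with Samul-tang and 3535 against YC; S phase counts were 9, 1 and 11 and mitosis counts 0, 0 and 1. Of 3202 alternative values for single genes and promoter shares 3093 kept their side of the threshold or their size, 49 gained a call, 56 lost one and 4 promoter shares moved. Depth limits Orc1 most, with 6 to 37 counts per library.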
